A study of Mus musculus with 6 samples.

Results

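The miR-30 family was followed through 6 small RNA libraries. Members were all entries of the deposited table named miR-30a to miR-30e, from either arm of the hairpin, with entries of the same name and sequence summed. The rule found 11 entries, which gave 10 members of 756 sequences in the whole table: 5 from the 5p arm and 5 from the 3p arm. miR-30c-5p stood in 2 entries, with its reads split equally over the loci of its 2 hairpins. All members carry rat names, although the authors placed them on the mouse genome.

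The libraries are labelled Mes23.5, a dopaminergic hybrid line with mouse neuroblastoma and rat midbrain parents. The label for both groups also gives stimulation with LPS, a component of bacterial outer membranes, for 24 h. In the SIX2_EV group (3 libraries) the cells received extracellular vesicles of microglia made to overexpress SIX2, a homeobox transcription factor, and in the control_EV group (3 libraries) they received vesicles of control microglia. The growth protocol names the mouse microglial line BV2, so the origin of the RNA is known only as labelled, and vesicle RNA and RNA of the recipient cells cannot be told apart in these libraries. Whether libraries of a group came from separate cultures is not stated. Any p-value here then reflects only library-to-library spread, possibly technical.

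A miRNA is cut from a hairpin precursor whose arms each give a mature strand, named 5p or 3p. Usually one strand is loaded into an Argonaute protein, where its seed, bases 2 to 8, pairs with target mRNAs and lowers their output. The miR-30 family is widely expressed, and its 5p strands share a seed. It is known for roles in epithelial and kidney differentiation, in autophagy through the Beclin 1 mRNA, and in neurons and glia.

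The sequences show what the members have in common and where they part. The following mature strands from RefSeq (mouse, GRCm38.p6) carry the shared 5p seed, in capitals.
miR-30a-5p: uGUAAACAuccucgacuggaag
miR-30c-5p: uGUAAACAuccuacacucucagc
miR-30e-5p: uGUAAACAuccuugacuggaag
miR-384-5p: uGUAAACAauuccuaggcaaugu
miR-384-5p, which is named outside the family, has the same seed, and no entry of the table matched it. Of the 756 sequences, 5 held the seed at bases 2 to 8, and all 5 were the family's own 5p strands. These 5 deposited strands were alike over their first 11 bases. Counting from 1 at the 5′ end, miR-30a-5p and miR-30e-5p differed by 1 base, C13T, while miR-30a-5p and miR-30c-5p differed at 5 positions.

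The 3p strands are less alike, as these RefSeq sequences show, again with the seed in capitals.
miR-30a-3p: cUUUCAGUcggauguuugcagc
miR-30e-3p: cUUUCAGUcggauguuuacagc
miR-30c-2-3p: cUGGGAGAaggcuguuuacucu
The 5 deposited 3p strands held 3 seeds. miR-30a-3p, miR-30d-3p and miR-30e-3p shared one seed, and miR-30b-3p and miR-30c-2-3p each had their own.

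The hairpins lie in 3 pairs on 3 chromosomes. In GRCm38.p6, mir-30a is at chr1:23272269-23272339 on the plus strand, and mir-30c-2 lies 19.36 kb away at chr1:23291701-23291784 in an exon of the lincRNA Gm27028. The hairpins mir-30c-1 (chr4:120769534-120769622) and mir-30e (chr4:120772606-120772697) are 2.98 kb apart on the minus strand, within introns of Nfyc, which encodes a subunit of the NF-Y transcription factor. For mir-30b and mir-30d the table gives positions on chromosome 15, 68209264 to 68209359 and 68213056 to 68213143 on the minus strand, in a build it does not name and which is not GRCm38. There they are 3.7 kb apart.

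The deposited form kept the annotated 5′ end, which sets the seed, in the 6 members compared with their RefSeq sequences. For the 4 strands of mir-30b and mir-30d the ends were read from the name suffixes of the table alone, and these name no shift of the 5′ end. Over all mature names with a mouse hairpin, 83.9% of 384 kept it. Of the 5p strands, 4 of 5 were deposited in a form extended at the 3′ end (miR-30d-5p by its suffix), against 24.0% of the 384 names. The following 3 deposited forms, written as DNA, show the added bases in capitals.
miR-30a-5p as deposited: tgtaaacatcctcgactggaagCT
miR-30c-5p as deposited: tgtaaacatcctacactctcagcT
miR-30e-5p as deposited: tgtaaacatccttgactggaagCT
The added bases of these 3 forms match the RefSeq hairpins, as the first of them shows, with both annotated strands in capitals.
mir-30a hairpin: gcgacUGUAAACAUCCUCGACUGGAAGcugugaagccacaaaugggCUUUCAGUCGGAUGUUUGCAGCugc
Among the 3p strands, miR-30e-3p was deposited with a last base unlike the annotation, C22T, and this form is not in the RefSeq hairpin. Its sequence, with the changed base in capitals, is as follows.
miR-30e-3p as deposited: ctttcagtcggatgtttacagT
Each entry gives reads for 1 form only, so the mix of forms within a member was not analysed here.

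Deposited reads ranged from 179621 to 421279 per library. Reads of mature miRNAs with a mouse hairpin made up 13.9%, 6.79% and 32.6% of reads in SIX2_EV libraries 1 to 3 and 31.5%, 56.7% and 70.8% in control_EV libraries 1 to 3, a 10.4-fold range. The third library was the highest of its group in both. Levels are therefore given as CPM, a library's reads scaled to a common total after TMM normalization, which sets libraries against each other by the bulk of their features and not by their totals. The part of this mature share in any difference between groups was not tested. The labelled neuronal origin was checked against 7 neuronal miRNAs: 5 matched an entry and miR-124-3p and miR-138-5p matched none. Of the 5, miR-9-5p had reads only in control_EV library 1 (7 reads) and miR-218-5p only in control_EV library 3 (21 reads). The summed neuronal level was 2053 to 3038 CPM in SIX2_EV and 2301 to 3168 CPM in control_EV, most of it miR-7a-5p. All 7 myeloid miRNAs matched an entry. Their sum was 30881 to 32591 CPM in SIX2_EV and 24818 to 45427 CPM in control_EV, most of it miR-146a-5p. Of the 7, miR-342-3p had reads only in control_EV library 3 (17 reads). In SIX2_EV, miR-223-3p was listed at 0 in libraries 1 and 2, and miR-150-5p in library 2. The 3 red blood cell miRNAs summed to 13892 to 21238 CPM in SIX2_EV and 8675 to 29333 CPM in control_EV. For 6 endothelial or mesenchymal miRNAs the sums were 2348 to 2506 CPM and 2223 to 3512 CPM. Of 6 epithelial miRNAs 4 matched an entry, and they summed to 0 to 127 CPM in SIX2_EV and 47.5 to 154 CPM in control_EV. Of 3 muscle miRNAs 1 matched, at 0 to 13.6 CPM in SIX2_EV and 7.15 to 16.7 CPM in control_EV. The cell of origin was not tested by these sums. Few values above 0 were under 5 reads (80 of 2541), so 0 is read as listed at 0 and not as absent.

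The family was abundant and its 5p strands carried most of its reads. It held 4.25%, 4.16% and 5.87% of mature miRNA reads in SIX2_EV libraries 1 to 3 and 4.50%, 4.20% and 5.06% in control_EV libraries 1 to 3. The third library of each group was the highest of its group, and the groups overlapped. The 95% Wilson intervals, which cover counting error only, were widest for SIX2_EV library 2, at 3.86% to 4.48%. The group means were 4.76% ± 0.964 (SD, n = 3) in SIX2_EV and 4.59% ± 0.435 (SD, n = 3) in control_EV.

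Of all reads, the family's share ran from 0.282% to 1.92% in SIX2_EV and from 1.42% to 3.58% in control_EV. That is a 12.7-fold range over the 6 libraries, against 1.41-fold for the share of mature reads. The ratio of the group means, control_EV over SIX2_EV, was 2.65 for the share of all reads and 0.963 for the share of mature reads. In CPM the family summed to 11774 ± 3738 (SD, n = 3) in SIX2_EV and 13756 ± 595 (SD, n = 3) in control_EV. The difference of the mean log2 values, SIX2_EV minus control_EV, was -0.27. Single SIX2_EV libraries decided its size: it was -0.18 without library 1, -0.11 without library 2 and -0.51 without library 3. The let-7 and miR-98 strands, another widely expressed set, were counted as 9 names with 1 deposited form each. They took 7.78%, 8.14% and 8.09% of mature reads in SIX2_EV libraries and 6.97%, 6.62% and 8.73% in control_EV libraries. The let-7c-5p form carried a changed base, G to A at position 19, so the names need not be distinct strands.

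**Figure D1:**
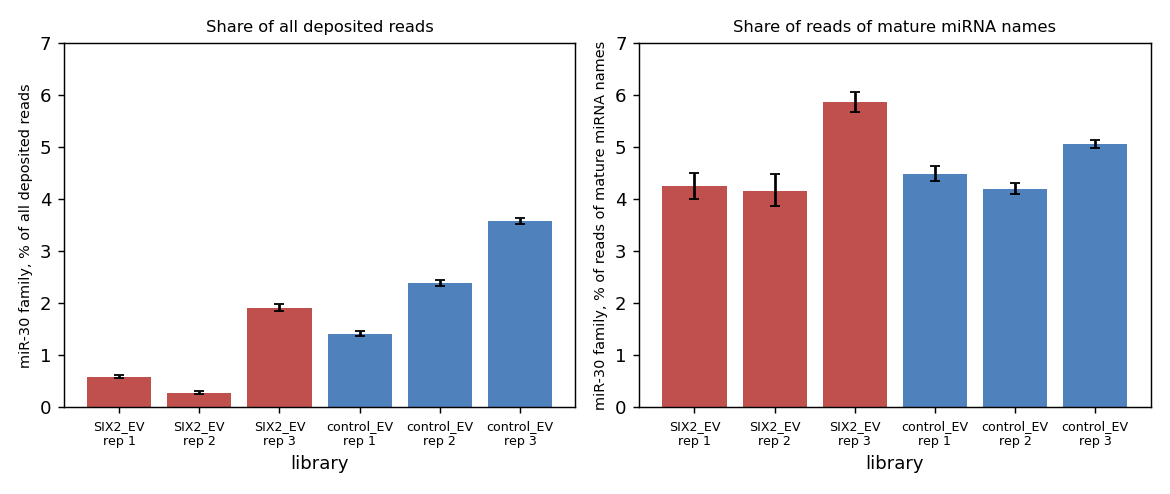
The family's share (y axes, in percent) of all deposited reads and of mature miRNA reads in each of the 6 libraries (x axes), with 95% Wilson intervals. The share of all reads spans 0.282% to 3.58%, while the share of mature reads stays between 4.16% and 5.87%.

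miR-30e-5p, encoded within Nfyc, was the most abundant member, and ranked 13 among the mature names by mean CPM. It stood at 2985, 2799 and 4197 CPM in SIX2_EV libraries 1 to 3 and at 3693, 4228 and 3202 CPM in control_EV libraries 1 to 3. The third SIX2_EV library was within the control range and the other two were below it. The means were 3327 ± 759 and 3708 ± 513 CPM (SD, n = 3 each), a log2 fold change of -0.16 (SE 0.26; edgeR quasi-likelihood test, adjusted p = 0.871).

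miR-30a-5p, 1 base away from it and encoded on another chromosome, ranked 22. Its levels were 2386, 2351 and 3529 CPM in SIX2_EV libraries and 2922, 3462 and 2508 CPM in control_EV libraries. The third SIX2_EV library was the highest of all 6, and the groups overlapped. Its log2 fold change was -0.10 (SE 0.27; edgeR adjusted p = 0.917). The ratio of miR-30a-5p to miR-30e-5p reads was between 0.783 and 0.841 in the 6 libraries, the narrowest range (1.07-fold) of the 10 pairs of 5p strands.

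miR-30d-5p, from the chromosome 15 pair, ranked 27 and varied most among the 5p strands, over a 3.09-fold range. It stood at 1569, 1161 and 2860 CPM in SIX2_EV libraries and at 2271, 2316 and 3587 CPM in control_EV libraries. In both groups the third library was the highest, and the third SIX2_EV library lay among the controls. The log2 fold change was -0.55 (SE 0.40; edgeR adjusted p = 0.636). It was -0.19 without control_EV library 3, -0.27 without SIX2_EV library 2 and -0.87 without SIX2_EV library 3.

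miR-30c-5p, the strand made by 2 hairpins, ranked 30. It measured 1521, 1161 and 2674 CPM in SIX2_EV libraries and 1989, 2022 and 2025 CPM in control_EV libraries. The control libraries were nearly level (SD 19.6 CPM), while the SIX2_EV libraries fell on both sides of them. The log2 fold change was -0.17 (SE 0.34; edgeR adjusted p = 0.875).

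miR-30b-5p, processed from the hairpin next to mir-30d, was the lowest 5p strand and ranked 39. Its levels were 1131, 1217 and 2010 CPM in SIX2_EV libraries and 1927, 1802 and 1562 CPM in control_EV libraries. Libraries 1 and 2 of SIX2_EV were below every control, and library 3 was above every control. The log2 fold change was -0.28 (SE 0.29; edgeR adjusted p = 0.779).

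The 3p strands were about an order of magnitude lower. miR-30e-3p stood at 181, 210 and 232 CPM in SIX2_EV libraries and 227, 179 and 189 CPM in control_EV libraries, with overlapping groups and a log2 fold change of 0.07 (SE 0.49; edgeR adjusted p = 0.976). miR-30b-3p had 181, 182 and 286 CPM in SIX2_EV libraries and 121, 177 and 193 CPM in control_EV libraries. Here the third SIX2_EV library was the highest and the first control the lowest, and the groups overlapped (log2 fold change 0.41, SE 0.55; edgeR adjusted p = 0.845).

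miR-30a-3p had 114, 112 and 214 CPM in SIX2_EV libraries and 190, 208 and 163 CPM in control_EV libraries. Libraries 1 and 2 of SIX2_EV were the lowest and library 3 the highest (log2 fold change -0.34, SE 0.59; edgeR adjusted p = 0.871). The remaining 3p strands did not reach the filter on low counts and were not tested. miR-30c-2-3p had 13 reads in SIX2_EV library 3, 10 in control_EV library 2 and 38 in control_EV library 3, and was listed at 0 elsewhere. miR-30d-3p had 8 and 30 reads in control_EV libraries 2 and 3 and was listed at 0 elsewhere, including all SIX2_EV libraries.

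**Figure D2:**
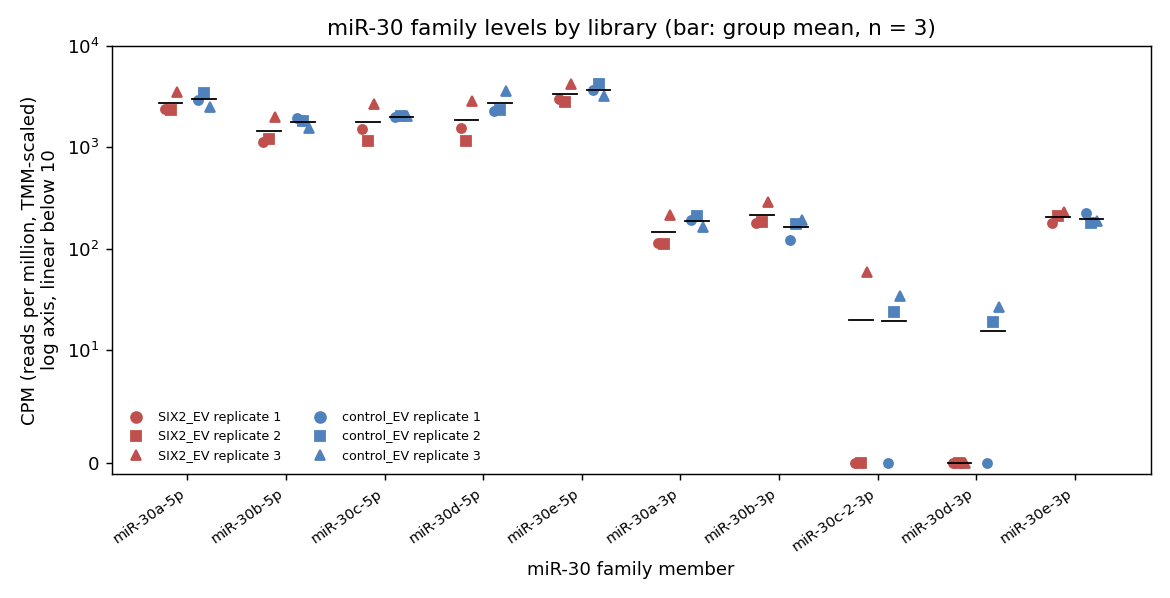
CPM (y axis, log scale, linear below 10) of the 10 members (x axis) in each library, with bars at group means (n = 3). The 5p strands lie between 1131 and 4228 CPM, and for every member the libraries of both groups overlap.

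Of the 10 members, 8 were tested, and 0 differed between the groups at an adjusted p under 0.05 by edgeR's quasi-likelihood test, where 0% of 319 features did. At an unadjusted p under 0.05 the counts were 0 members and 38 features, 11.9% of those tested. The CPM of the groups overlapped in all 8 members, whereas in 22.9% of all features tested they did not (16.6% lower and 6.27% higher in SIX2_EV). The members' log2 fold changes had a median of -0.16, and 6 of 8 were negative. Over all features tested the median was -0.28 and 62.7% were negative. DESeq2 on the same reads called 20 of the 319 features and 0 of the members, and limma-voom called 0 of either.

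The 5p strands were all negative under TMM over all features. For miR-30a-5p, miR-30c-5p and miR-30e-5p this direction turned with the scaling or with 1 library left out. With TMM computed over mature miRNA names alone, miR-30a-5p was at 0.08, miR-30c-5p at 0.01 and miR-30e-5p at 0.03. In the DESeq2 fit, which changes the scaling and the model together, miR-30a-5p was at 0.02. With TMM over all features but without SIX2_EV library 2, miR-30a-5p was at 0.04 and miR-30c-5p at 0.09. With plain totals the members' median was -1.32, where that of all features tested was -1.52. These are log2 fold changes, and under none of these settings was a member called. miR-30d-5p stayed negative under every alternative (-1.75 to -0.0055). miR-30b-5p turned only with the third SIX2_EV library as the lone treated library (0.10).

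**Figure D3:**
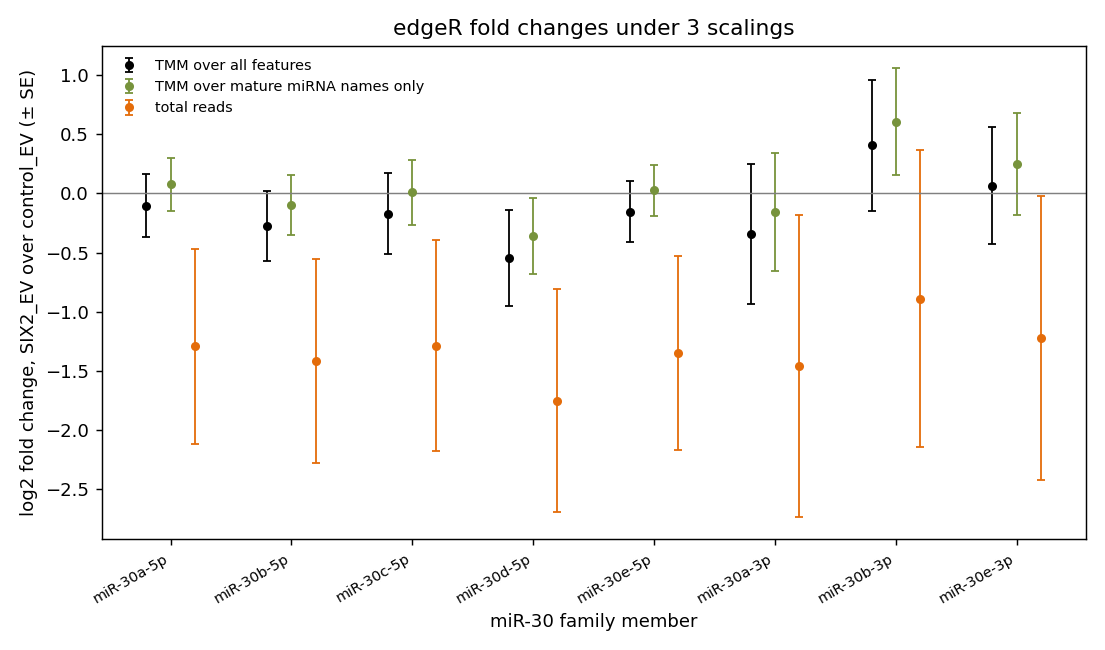
Log2 fold changes of SIX2_EV over control_EV (y axis, bars are ± SE from edgeR) for the 8 tested members (x axis) under 3 scalings. Scaling to total reads moves the members' median from -0.16 to -1.32, while TMM over mature names alone brings miR-30a-5p, miR-30c-5p and miR-30e-5p just above 0.

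The third libraries stood apart from the others in several members. With replicates 1 and 2 alone, miR-30b-5p had a log2 fold change of -0.52 (edgeR adjusted p = 0.135), the smallest adjusted p among the members, and 1 member passed an unadjusted p under 0.05 beside 96 of 301 features. With the third SIX2_EV library as the lone treated library against all controls, its log2 fold change was 0.10, of the opposite sign. That lone library is assumed to vary like the controls.

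The make-up of the 5p reads does not depend on scaling. miR-30e-5p led and miR-30a-5p came next in 5 of 6 libraries. The exception was control_EV library 3, which miR-30d-5p led. miR-30b-5p was the lowest in 5 of 6 libraries, the exception being SIX2_EV library 2, where miR-30c-5p and miR-30d-5p tied below it at 83 reads each. miR-30e-5p made up 31.1%, 32.2% and 27.5% of 5p reads in SIX2_EV libraries and 28.8%, 30.6% and 24.9% in control_EV libraries.

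For miR-30a-5p the shares were 24.9%, 27.1% and 23.1% in SIX2_EV libraries and 22.8%, 25.0% and 19.5% in control_EV libraries. Both strands had the lowest share of each group in the third library, and the groups overlapped. The group means for miR-30a-5p were 25.0% ± 1.98 and 22.4% ± 2.80 (SD, n = 3 each; exact two-sided permutation p = 0.3). For miR-30e-5p they were 30.3% ± 2.47 and 28.1% ± 2.93 (exact two-sided permutation p = 0.4).

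miR-30d-5p made up 16.4%, 13.4% and 18.7% in SIX2_EV libraries and 17.7%, 16.7% and 27.8% in control_EV libraries. The third control stood clear of all others, with a Wilson interval of 27.1% to 28.6%. The means were 16.1% ± 2.69 and 20.8% ± 6.14 (SD, n = 3 each; exact two-sided permutation p = 0.4). The shares of miR-30b-5p (13.0% ± 1.12 and 13.4% ± 1.50; exact permutation p = 0.7) and miR-30c-5p (15.6% ± 2.09 and 15.3% ± 0.588; exact permutation p = 0.8) differed less between the groups than within them. Across 3 against 3 libraries the smallest p this test can give is 0.1.

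The 5p strands of the chromosome 15 pair did not keep a fixed ratio. In the other pairs miR-30c-5p comes from 2 hairpins, so their ratios cannot be read by pair. miR-30d-5p over miR-30b-5p was 1.39, 0.954 and 1.42 in SIX2_EV libraries and 1.18, 1.29 and 2.30 in control_EV libraries. The third control was the highest and the second SIX2_EV library the lowest, at 83 against 87 reads. The ratio miR-30c-5p to miR-30d-5p was the only one of the 10 pairs whose groups did not overlap, at 0.968 ± 0.0326 in SIX2_EV and 0.771 ± 0.179 in control_EV (SD, n = 3 each). This ratio was singled out after its values were seen and was not tested. Its lowest value, 0.564, was in control_EV library 3, at 2266 against 4015 reads. Pairs of other features were not counted, so no share over all features can be set beside it.

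**Figure D4:**
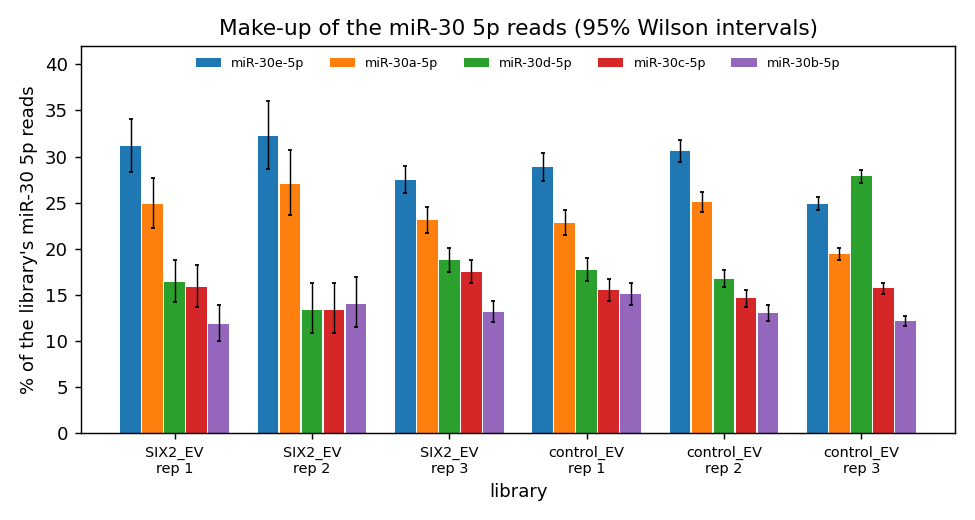
Share of each 5p strand in a library's miR-30 5p reads (y axis, in percent) by library (x axis), with 95% Wilson intervals. miR-30e-5p and miR-30a-5p lead in 5 of 6 libraries, and miR-30d-5p rises to 27.8% in the third control_EV library.

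The share of a hairpin's reads that came from its 3p arm was measured within each library. For mir-30a it was 4.56%, 4.55% and 5.71% in SIX2_EV libraries and 6.11%, 5.67% and 6.09% in control_EV libraries. The third SIX2_EV library overlapped the controls. The log2 ratio of 5p to 3p reads, with 1 read added to each, was higher in SIX2_EV by 0.21 (exact two-sided permutation p = 0.2, adjusted p = 0.745 over 108 hairpins with both arms listed).

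For mir-30e the 3p share was 5.71%, 6.98% and 5.24% in SIX2_EV libraries and 5.78%, 4.07% and 5.58% in control_EV libraries. These groups overlapped as well, with means of 5.97% ± 0.901 and 5.15% ± 0.936 (SD, n = 3 each). The log2 ratio of 5p to 3p reads differed by -0.28, SIX2_EV minus control_EV (exact two-sided permutation p = 0.4, adjusted p = 0.8 over the 108 hairpins). Without SIX2_EV library 3 the groups of both mir-30a and mir-30e no longer overlapped in this ratio, at differences of 0.29 and -0.39. Their adjusted p was 0.4 and 0.514 (exact two-sided permutation). For mir-30a the groups also stood apart without control_EV library 2 (0.25; exact two-sided permutation, adjusted p = 0.939). Fewer libraries stand apart more readily, and the share of all hairpins that did so under these settings was not counted.

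mir-30b had the highest mean 3p share of the family in both groups, and with all libraries it was the family hairpin whose groups stood apart. In SIX2_EV libraries 1 to 3 its 3p arm gave 13.8%, 13.0% and 12.5% of reads, and in control_EV libraries 1 to 3 it gave 5.89%, 8.95% and 11.0%. It was the highest of the family in 5 of 6 libraries, and in control_EV library 1 it was below mir-30a. Every SIX2_EV library was above every control, but the closest pair, library 3 of each group, had overlapping Wilson intervals of 9.87% to 15.6% and 9.69% to 12.5%. The group means were 13.1% ± 0.650 and 8.61% ± 2.57 (SD, n = 3 each), and the log2 ratio of 5p to 3p reads was lower in SIX2_EV by 0.76.

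The exact two-sided permutation p for mir-30b was 0.1, the smallest this design allows, and its adjusted p over 108 hairpins was 0.745. Groups did not overlap in 12% of the 108 hairpins, and in 13.3% of the 15 hairpins with both arms above 0 in all libraries (6.67% with the ratio lower in SIX2_EV, as in mir-30b). Of those 15 hairpins 3 were of the family, and mir-30b was the only one of the 3 whose groups did not overlap. Behind the 3p value were 19, 13 and 63 reads in SIX2_EV and 33, 74 and 216 reads in control_EV. Without control_EV library 1 the difference in log2 ratio shrank from -0.76 to -0.49, and with replicates 1 and 2 alone it was -1.02. For the arm ratios, neither replicates 1 and 2 alone nor the set of 15 hairpins was a planned setting.

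The hairpins mir-30c-2 and mir-30d, from different chromosomes, gave few 3p reads, and each was listed at 0 in several libraries. The 3p share of mir-30c-2, set against all miR-30c-5p reads of its 2 hairpins, was at most 2.16%, in SIX2_EV library 3. That of mir-30d was at most 0.820%, in control_EV library 2. With 1 read added the groups of both overlapped in the arm ratio. For mir-30c-2 they did not with 5 reads added to each arm (difference in log2 ratio -1.37) or with zeros set to 4 reads (-1.47). Its value thus rests on how the zeros are treated. The adjusted p was then 0.284 and 0.245 (exact two-sided permutation), the same as for mir-30b under these settings. How many of all hairpins stood apart under them was not counted.

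**Figure D5:**
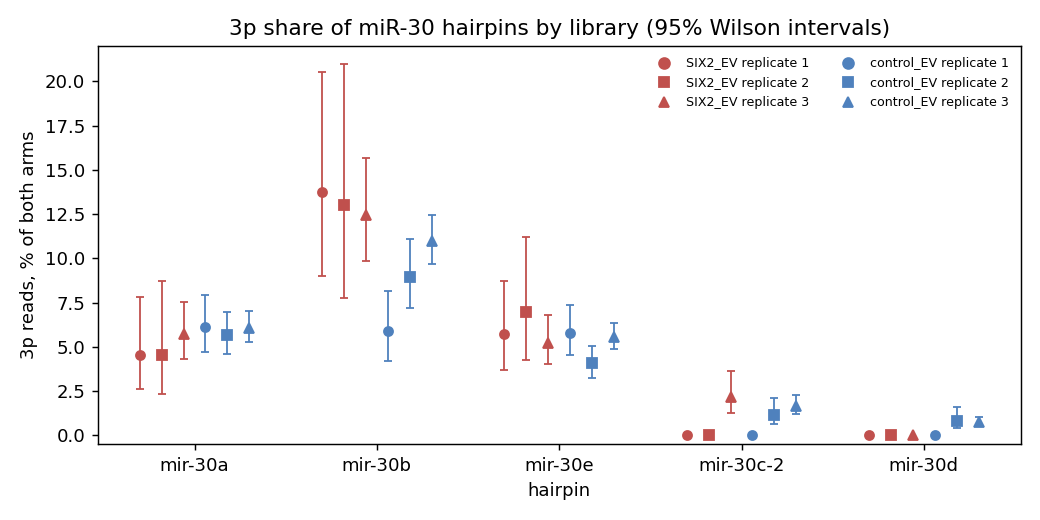
3p reads as a percentage of both arms (y axis) for 5 hairpins (x axis), 1 point per library. A 95% Wilson interval is drawn only where 3p reads were above 0. For mir-30b the SIX2_EV libraries sit between 12.5% and 13.8%, above controls at 5.89% to 11.0%, and for mir-30a and mir-30e the groups overlap.

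The features whose pattern over the 6 libraries was most like that of the summed miR-30 5p reads were sought among the 182 others above 0 in every library. Likeness was the mean absolute difference of log2(CPM + 1) values, each centred on its own mean. The closest was miR-21-5p, at 0.04, then miR-182 and miR-155-5p at 0.10, miR-142-5p at 0.11 and let-7f-5p at 0.14. miR-21-5p, a widely expressed miRNA, had 41916, 39252 and 66009 CPM in SIX2_EV libraries and 53678, 63424 and 54759 CPM in control_EV libraries. For miR-21-5p the third SIX2_EV library was the highest of that group and lay above every control. The 6 libraries share their scaling, so these likenesses are a description.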

How the data were processed

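Small RNA was measured in 6 libraries of 2 groups. Per the labels' protocols, Trizol extraction was followed by TruSeq small RNA library preparation, and the authors used ACGT101-miR to remove adapter dimers, junk and low-complexity reads, common structural RNAs and repeats. The sources used here give no genome build, miRBase release or mapping settings. Per the file headers, the deposited table holds raw values, taken here as estimated counts since reads are split over loci, and the authors' normalized signal, found to be those counts multiplied by a constant in each library (0.2267 to 3.3986). Only the signal's factors were used, as an alternative.

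Entries of the same name and sequence were summed and rounded. Groups were compared with edgeR 4.0.16 (R 4.3.3): TMM, its default low-count filter, quasi-likelihood test, Benjamini-Hochberg adjustment over 319 features, threshold 0.05. The procedure was tested on simulated data. These gave all libraries the same mean profile apart from the set changes, so the spread in mature share was not covered. Arm ratios and shares were compared by exact permutation over libraries. Members with a mean of at least 100 CPM are given per library, and the 5 most alike features are named. Alternatives were other scalings and filters, DESeq2 1.42.0, limma 3.58.1, left-out libraries and a replicate block. Intervals are Wilson intervals. RefSeq sequences (GRCm38.p6) were matched by miRNA name. Members and lists were chosen with earlier results of these data known.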

Additional observations from a re-analysis of the deposited data

How the results depend on the processing

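Over 20 alternatives, 143 of 160 member log2 fold changes kept their sign, 17 took the opposite one, and no member was called under any of them (edgeR, DESeq2 or limma-voom). Scaling to total reads moved the members' median to -1.32 and turned miR-30b-3p to -0.89 and miR-30e-3p to -1.22. It moved the difference in mean log2 of the family's sums to -1.75 (5p -1.76, 3p -1.50). As a share of mature reads the 3p sum was at 0.29. miR-30e-3p was at -0.042 with upper-quartile scaling, -0.041 with no filter and -0.024 with a mean of at least 10 CPM. miR-30a-5p was at 0.023 with DESeq2, and with mature names alone it was at 0.080, miR-30c-5p at 0.0092 and miR-30e-5p at 0.028. With the third SIX2_EV library against all controls, added after seeing the data, values were 0.11 (miR-30a-3p), 0.17 (miR-30a-5p), 0.10 (miR-30b-5p), 0.33 (miR-30c-5p) and 0.10 (miR-30e-5p). The cause was not tested.

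Leaving out 1 library at a time gave -0.20 to 0.035 for miR-30a-5p, -0.46 to 0.087 for miR-30c-5p and -0.042 to 0.14 for miR-30e-3p (log2 fold changes), -1.05 to 0.41 and -0.68 to 1.39 percentage points for the 5p shares of miR-30b-5p and miR-30c-5p, and -1.30 to 0.31 and -0.80 to 0.80 for the log2 arm ratios of mir-30c-2 and mir-30d. For miR-30a-5p and miR-30c-5p the sign turned without SIX2_EV library 2. With replicates 1 and 2 alone, the share of miR-30c-5p differed by -0.47 percentage points and the mir-30d arm ratio by -1.13. This setting was not planned for the arm ratios. With 5 reads added to each arm, mir-30a was at -0.051, mir-30c-2 at -1.37 and mir-30d at -1.28. With zeros set to 4 reads mir-30c-2 was at -1.47 and mir-30d at -1.54. Under both settings the groups of mir-30c-2 did not overlap, at an adjusted p of 0.284 and 0.245 (exact two-sided permutation).

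The labels give no batch and the replicate numbers only name libraries, so the replicate block was used as an alternative only. Deviations of same-numbered libraries correlated at 0.189, 0.0527 and 0.619, the last being the largest between the groups. SIX2_EV library 1 correlated best with control_EV library 2 (0.303), and SIX2_EV library 2 with control_EV library 1 (0.539). Whether the numbers pair the libraries is thus not settled. With the replicate block the members' median was -0.21 and edgeR called 0 of 319 features (42 at an unadjusted p under 0.05). The smallest adjusted p among the members was then that of miR-30d-5p (log2 fold change -0.62, SE 0.25; edgeR adjusted p = 0.405). Depth limits the 3p strands most, at 8 to 216 reads where listed.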
